A study of Caenorhabditis elegans with 8 samples.

Results

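The muscle filament mRNAs described here encode 10 proteins of the sarcomere, the contractile unit of muscle, in the nematode Caenorhabditis elegans. They were taken by name and gene ID and not by a measured value, though with earlier results of these data known. They are the myosin heavy chains unc-54, myo-1, myo-2 and myo-3, the paramyosin unc-15, the myosin light chains mlc-1 and mlc-2, the giant proteins unc-22 and unc-89, and the tropomyosin lev-11. Of the 10 IDs, 9 had a row among the 12240 gene IDs of the count table, and myo-1 (WBGene00003513) was not analysed here. The table holds IDs only, so the symbols are those that came with the list of IDs and were not checked against an annotation of these IDs.

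The reads come from iCLIP, in which ultraviolet light fixes RNA to the protein it touches, the protein is purified and the RNA that comes with it is sequenced. Both groups were whole fourth-stage (L4) larvae grown on plates, carrying FLAG-tagged FOG-3 integrated as a single copy, and lysed by ball milling. The FOG-3 group (4 libraries) was purified with the FLAG antibody, and the control group (4 libraries) went through the same steps without it. The labels give no promoter for the transgene and do not say whether the endogenous fog-3 gene was present.

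In C. elegans, muscle is somatic tissue, built mainly of body wall muscle and of the pharynx, the feeding pump. Its thick filaments are myosin heavy chains laid around a paramyosin core, and its thin filaments are actin with tropomyosin and troponin. FOG-3 belongs to the Tob/BTG family and is known for its role in germ cells, where it is required for the sperm fate. In a lysate of whole larvae, muscle mRNAs and germline mRNAs are in the same tube. The comparison therefore asks how the reads of these somatic mRNAs stood relative to the other reads recovered, with and without the antibody. By the labels the groups differ in the antibody and not in the animals. The values are reads recovered from a lysate of whole animals and not levels in the animals. They do not tell the number of muscle cells from the RNA per muscle cell, since fewer cells and less RNA per cell cannot be told apart.

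Depth differed between the groups. The libraries of each group are called a, b, c and d in order of rising depth, which says nothing of replicate numbers. FOG-3 a to d held 76790, 80529, 97054 and 186739 reads assigned to genes, and control a to d held 14964, 18676, 30631 and 74892. All values per library below are given in this order. Levels are CPM, reads scaled to a total of 1000000 gene-assigned reads, so that a single read was worth 5.36 CPM in the deepest library and 66.8 CPM in the shallowest. A count of 0 allows up to 3 reads, which is 200.5 CPM in control a and 16.1 CPM in FOG-3 d. The most abundant gene ID, which is not among the listed IDs, took 24.6% to 30.4% of gene-assigned reads with the antibody and 41.6% to 56.7% without it. Every CPM value of a muscle mRNA moves with that share.

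Together, the 9 muscle mRNAs made up a larger share of gene-assigned reads after purification of FOG-3 than in controls. They held 0.488%, 0.488%, 0.500% and 0.482% in FOG-3 a to d. In control a to d they held 0.200%, 0.161%, 0.317% and 0.324%. Every FOG-3 library lay above every control, and the FOG-3 libraries lay close to each other. Such a rise was common: in CPM, FOG-3 lay above the controls without overlap for 63.8% of the 886 gene IDs tested below. Their median log2 fold change with total counts was 1.94, against 0.91 for the 8 muscle mRNAs among them. The mean share of the 9 muscle mRNAs was 0.490% ± 0.007 (SD, n = 4) with the antibody and 0.251% ± 0.083 (SD, n = 4) without it, a ratio of 1.95.

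The depth behind these shares was unequal. The muscle mRNAs had 2154 reads in the FOG-3 libraries and 400 in the controls, of which controls a and b gave 30 each. The exact Clopper-Pearson interval at the 95% level ran from 0.451% to 0.515% in FOG-3 d and from 0.108% to 0.229% in control b. Such intervals cover counting error only. The size and the direction of this difference depended on the denominator. Without the most abundant gene ID in the total the ratio was 1.38. With all reads as the total, also those assigned to no gene, it was 1.80. The groups did not overlap in either. When the 10 most abundant gene IDs, none (0) of them on the list, were left out of the total, the share was 0.846% ± 0.066 (SD, n = 4) with the antibody and 1.09% ± 0.22 (SD, n = 4) without it, a ratio of 0.775. The groups then overlapped, with 0.941% in the highest FOG-3 library and 0.845% in the lowest control.

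The myosin heavy chains are the motor proteins of the thick filament. The main one of body wall muscle is UNC-54, whose mRNA (WBGene00006789) had 99, 110, 137 and 256 reads in FOG-3 a to d. It had 7, 11, 28 and 77 reads in control a to d. These counts correspond to 1289, 1366, 1412 and 1371 CPM in FOG-3, and to 468, 589, 914 and 1028 CPM in controls. All 4 FOG-3 libraries were above all 4 controls in CPM, and the FOG-3 libraries differed among themselves by less than the controls did. The mean level was 1359 ± 51 CPM (SD, n = 4) with the antibody and 749.8 ± 264.5 CPM (SD, n = 4) without it.

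MYO-3 is the minor heavy chain of body wall muscle, found in the middle of the filament. Its mRNA (WBGene00003515) had 10, 15, 22 and 48 reads in FOG-3 a to d, which is 130, 186, 227 and 257 CPM. Control a to d had 0, 1, 2 and 13 reads, which is 0, 53.5, 65.3 and 173.6 CPM. The groups overlapped through the deepest control, d. In control a the count of 0 allows up to 200.5 CPM, about the FOG-3 mean of 200.1 ± 54.8 CPM (SD, n = 4), so no lower level was detectable in that library.

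MYO-2 is a heavy chain of the pharynx. Its mRNA (WBGene00003514) had the fewest reads of the 9. FOG-3 a to d had 7, 9, 12 and 38 reads (91.2, 111.8, 124 and 203.5 CPM). Control a to d had 1, 1, 4 and 7 reads (66.8, 53.5, 131 and 93.5 CPM). The groups overlapped. Control c lay above all FOG-3 libraries but d. This mRNA did not pass the filter on low counts and has no test of its own below.

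Paramyosin, the product of unc-15, forms the core of the thick filament. Its mRNA (WBGene00006754) had 105, 101, 128 and 200 reads in FOG-3 a to d, which is 1367, 1254, 1319 and 1071 CPM. Control a to d had 7, 11, 20 and 58 reads, which is 468, 589, 653 and 774 CPM. As for unc-54, the lowest FOG-3 library was above the highest control. The mean level was 1253 ± 130 CPM (SD, n = 4) with the antibody and 621 ± 128 CPM (SD, n = 4) without it.

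The light chains MLC-1 and MLC-2 bind the neck of the myosin heavy chain and regulate it. The mlc-2 mRNA (WBGene00003370) had 32, 33, 31 and 59 reads in FOG-3 a to d (417, 409.8, 319 and 316 CPM) and 2, 1, 3 and 15 reads in control a to d (134, 53.5, 97.9 and 200.3 CPM). Its groups did not overlap in CPM. The mlc-1 mRNA (WBGene00003369) had 16, 15, 25 and 62 reads in FOG-3 a to d (208, 186, 258 and 332 CPM). It had 0, 0, 6 and 8 reads in the controls (0, 0, 196 and 107 CPM), and its groups overlapped through control c. The count of 0 in control a allows up to 200.5 CPM, which lies inside the FOG-3 range, and that in control b allows up to 160.6 CPM, which lies below it.

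MLC-1 and MLC-2 are close copies of each other, and how the authors counted reads that map to several places is not given in the sources used here. Their separate counts are therefore uncertain. The sum of the pair was 48, 48, 56 and 121 reads in FOG-3 a to d, and 2, 1, 9 and 23 in control a to d. That is 577 to 648 CPM in FOG-3 and 53.5 to 307 CPM in controls, with no overlap. In the pooled reads, mlc-1 had 0.761 reads per read of mlc-2 in FOG-3 and 0.667 in controls. The counts of both genes differed in every library, so the rows are not copies of each other.

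UNC-22 (twitchin) and UNC-89 (the obscurin of C. elegans) are giant proteins of the thick filament region, the first spread along the filaments and the other at the M-line, where filaments are linked. The unc-22 mRNA (WBGene00006759) had 22, 23, 35 and 56 reads in FOG-3 a to d (286, 286, 361 and 299.9 CPM), and 1, 1, 5 and 10 reads in control a to d (66.8, 53.5, 163 and 134 CPM). The unc-89 mRNA (WBGene00006820) had 18, 19, 18 and 52 reads in the FOG-3 libraries (234, 236, 185 and 278 CPM) and 2, 1, 5 and 11 in the controls (134, 53.5, 163 and 147 CPM). In both, every FOG-3 library was above every control in CPM. The gap was wide for unc-22 and narrow for unc-89, where FOG-3 c at 185 CPM was only just above control c at 163 CPM.

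Tropomyosin, the product of lev-11, lies along the actin of the thin filament and is the only thin filament protein among the 9. Its mRNA (WBGene00002978) had 66, 68, 77 and 130 reads in FOG-3 a to d, which is 859, 844, 793 and 696 CPM. Control a to d had 10, 3, 24 and 44 reads, which is 668, 161, 784 and 588 CPM. The groups overlapped, since control c lay above FOG-3 d. Control b was the lowest by far, with 3 reads. The mean level was 798.4 ± 73.8 CPM (SD, n = 4) with the antibody and 550.0 ± 271.7 CPM (SD, n = 4) without it.

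**Figure D1:**
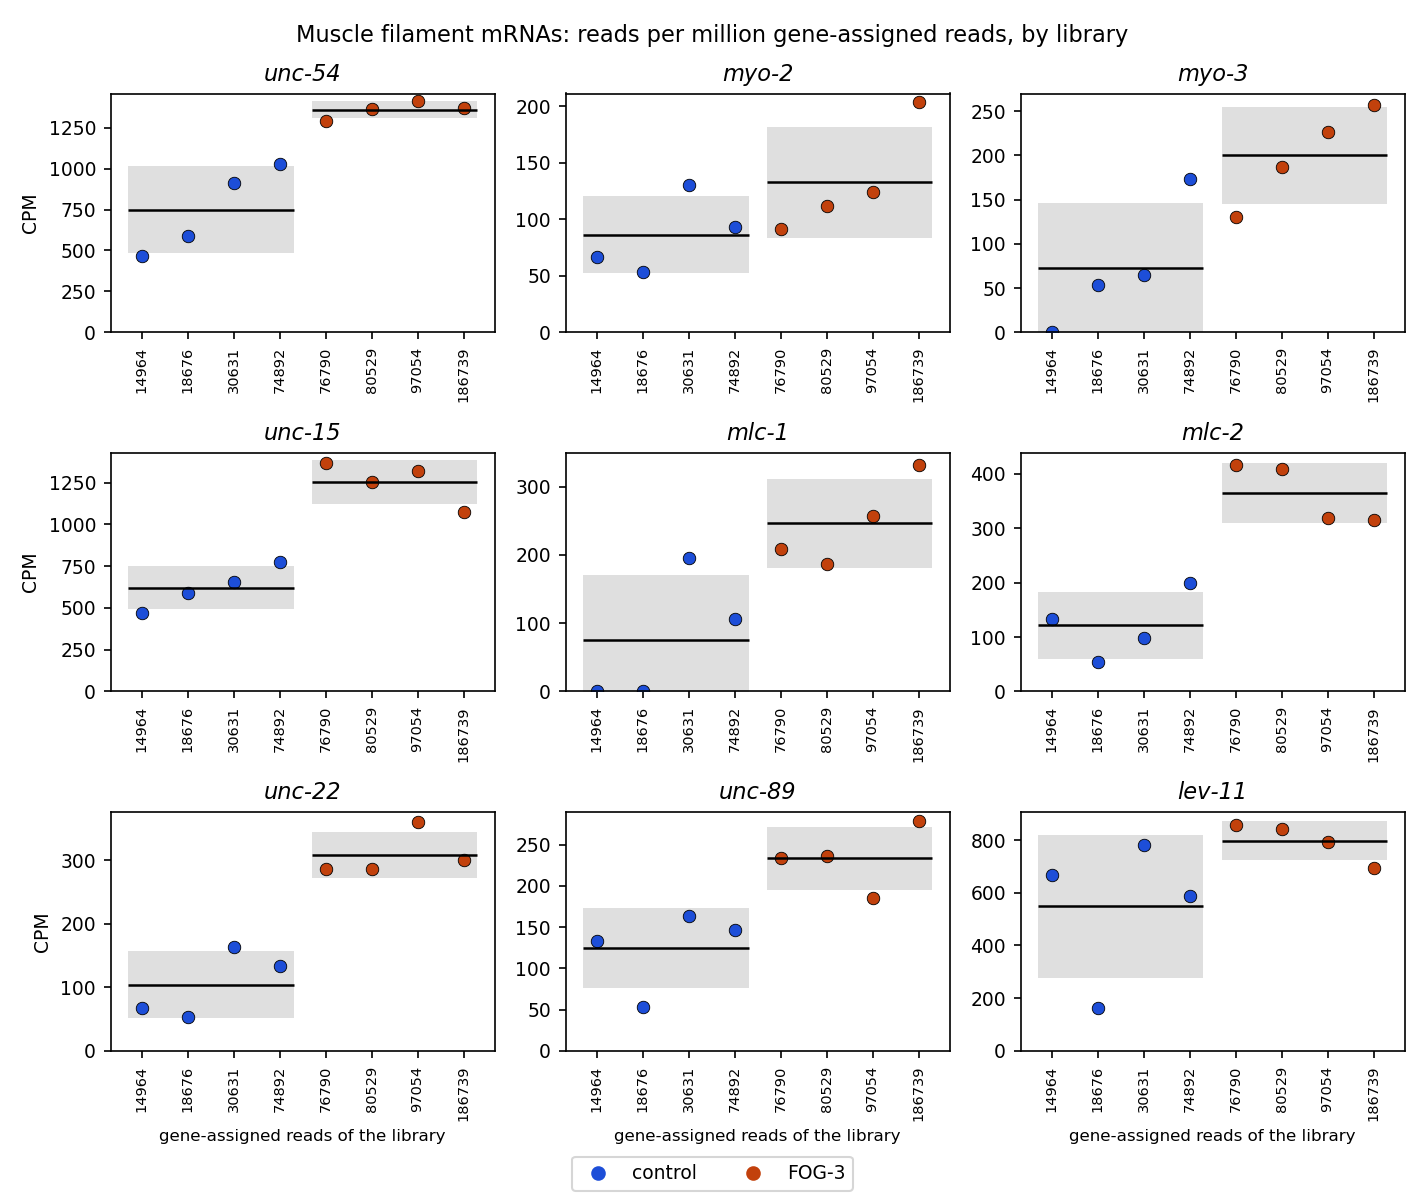
Level of each muscle filament mRNA in each library, in CPM of gene-assigned reads on a linear axis, with libraries ordered by depth within each group and labelled by their gene-assigned reads. Lines are group means and grey bands 1 SD (n = 4, cut off at 0); unc-54, unc-15, mlc-2, unc-22 and unc-89 show no overlap between groups, while myo-2, myo-3, mlc-1 and lev-11 do.

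Counted this way, 5 of the 9 mRNAs had every FOG-3 library above every control, and 4 overlapped. None (0) had every FOG-3 library below every control. Over all 886 gene IDs that could be tested, FOG-3 lay above the controls without overlap for 63.8% and below them for 5.08%, so that 5 of 9 is near the background. With the TMM factors described next, the groups overlapped for all 9 mRNAs, against backgrounds of 43.5% of tested gene IDs with FOG-3 above and 21.1% with FOG-3 below.

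The formal comparison was edgeR's quasi-likelihood test with TMM factors, which scale the libraries so that the weighted mean log ratio between them is 0 once the most extreme gene IDs are trimmed off. It was fitted on the 886 gene IDs that passed the filter, with p-values adjusted by the Benjamini-Hochberg method over all of them and a call at an adjusted p under 0.05. Of the 8 muscle mRNAs that passed the filter, none (0) was called higher in FOG-3, 2 were called lower and 6 did not pass the threshold. At an unadjusted p under 0.05 the counts were the same, with 0 higher and 2 lower. The background in this fit was 45.3% called higher and 27.5% called lower. The 0 of 8 called higher is below the first of these, which was not tested, and the 2 of 8 called lower is near the second. For these 2 mRNAs the test thus gave a direction opposite to the CPM values above, because the TMM factors were 1.47 to 1.66 with the antibody and 0.593 to 0.716 without it.

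The mRNAs called lower with TMM were lev-11 and unc-54. The TMM-scaled level of lev-11 was 509.7 ± 47.3 CPM (SD, n = 4) with the antibody and 856.8 ± 429.8 CPM (SD, n = 4) without it. This gave a log2 fold change of -0.78 with an SE of 0.25 and an edgeR adjusted p of 0.00297. The TMM-scaled level of unc-54 was 869.8 ± 69.3 CPM (SD, n = 4) with the antibody and 1153 ± 325 CPM (SD, n = 4) without it. This gave a log2 fold change of -0.53 with an SE of 0.23 and an edgeR adjusted p of 0.0279. The groups overlapped for both mRNAs on this scale.

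Neither call was stable. The lev-11 call was lost without FOG-3 b (log2 fold change -0.40) and without any of the controls a (-0.54), b (-0.75), c (-0.35) or d (-0.24). The unc-54 call was lost without FOG-3 b (-0.11) or c (-0.50) or control a (-0.45), b (-0.38) or c (-0.22), and without control d the value turned to 0.24. Over all alternatives the edgeR, DESeq2 or limma adjusted p ran from 8.23e-05 to 0.781 for lev-11 and from 2.09e-07 to 0.959 for unc-54, with the smallest of each belonging to a value above 0.

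The other 6 tested mRNAs had log2 fold changes near 0 with TMM. Paramyosin unc-15 had -0.34 ± 0.24 (SE, edgeR adjusted p = 0.183), and the heavy chain myo-3 had -0.30 ± 0.43 (adjusted p = 0.543). The giant proteins lay on either side, with -0.40 ± 0.42 for unc-89 (adjusted p = 0.391) and 0.13 ± 0.42 for unc-22 (adjusted p = 0.788). The light chains had 0.16 ± 0.45 for mlc-1 (adjusted p = 0.754) and 0.07 ± 0.39 for mlc-2 (adjusted p = 0.886). With standard errors of 0.24 to 0.45, changes of this size in either direction were not detectable. The heavy chain myo-2 was tested only in fits where more gene IDs passed the filter. Without a filter it had a log2 fold change of 0.01 (edgeR adjusted p = 0.986). That value is not on the scale of those above, since the other muscle mRNAs were higher in that fit too. There unc-54 had 0.14, mlc-2 had 0.69 and lev-11 had -0.11. With the filter at 1 CPM in 4 libraries myo-2 had -0.12 (edgeR adjusted p = 0.901). Without the 2 shallowest controls it had -0.77 (edgeR adjusted p = 0.225).

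With no factors beyond total counts, the same test called 6 of the 8 mRNAs higher and none (0) lower, where the background was 67.3% higher and 9.48% lower, so that 6 of 8 is again near the background. The light chains and twitchin had the largest differences, with log2 fold changes of 1.36 for mlc-1 (edgeR adjusted p = 0.00247), 1.34 for unc-22 (adjusted p = 0.00169) and 1.29 for mlc-2 (adjusted p = 0.00147). Paramyosin unc-15 had 0.91 (adjusted p = 0.000358), myo-3 had 0.90 (adjusted p = 0.0383) and unc-54 had 0.72 (adjusted p = 0.00325). The mRNAs that did not pass were unc-89, at 0.81 (adjusted p = 0.0594), and lev-11, at 0.46 (adjusted p = 0.092). DESeq2, with its own size factors, called 5 of the 8 higher and none (0) lower, against backgrounds of 63.4% and 9.82%.

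The outer scalings gave opposite pictures. Scaled on the most abundant gene ID, all 8 were called higher, with log2 fold changes from 1.23 for lev-11 to 2.11 for mlc-1, against backgrounds of 79.7% higher and 0.677% lower. Scaled on the reads outside the 10 most abundant gene IDs, none (0) was called higher and 2 lower (lev-11 at -0.80 and unc-54 at -0.55), where 44.7% of all tested gene IDs were higher and 27.4% lower. Across the 7 scalings between libraries, the direction thus turned with the RNA taken as the standard for unc-54, myo-3, unc-15, unc-89 and lev-11. For mlc-1, mlc-2 and unc-22 the log2 fold change was above 0 under each of the 7, and only the call turned. A measure of the absolute amount of RNA recovered was not used here.

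**Figure D2:**
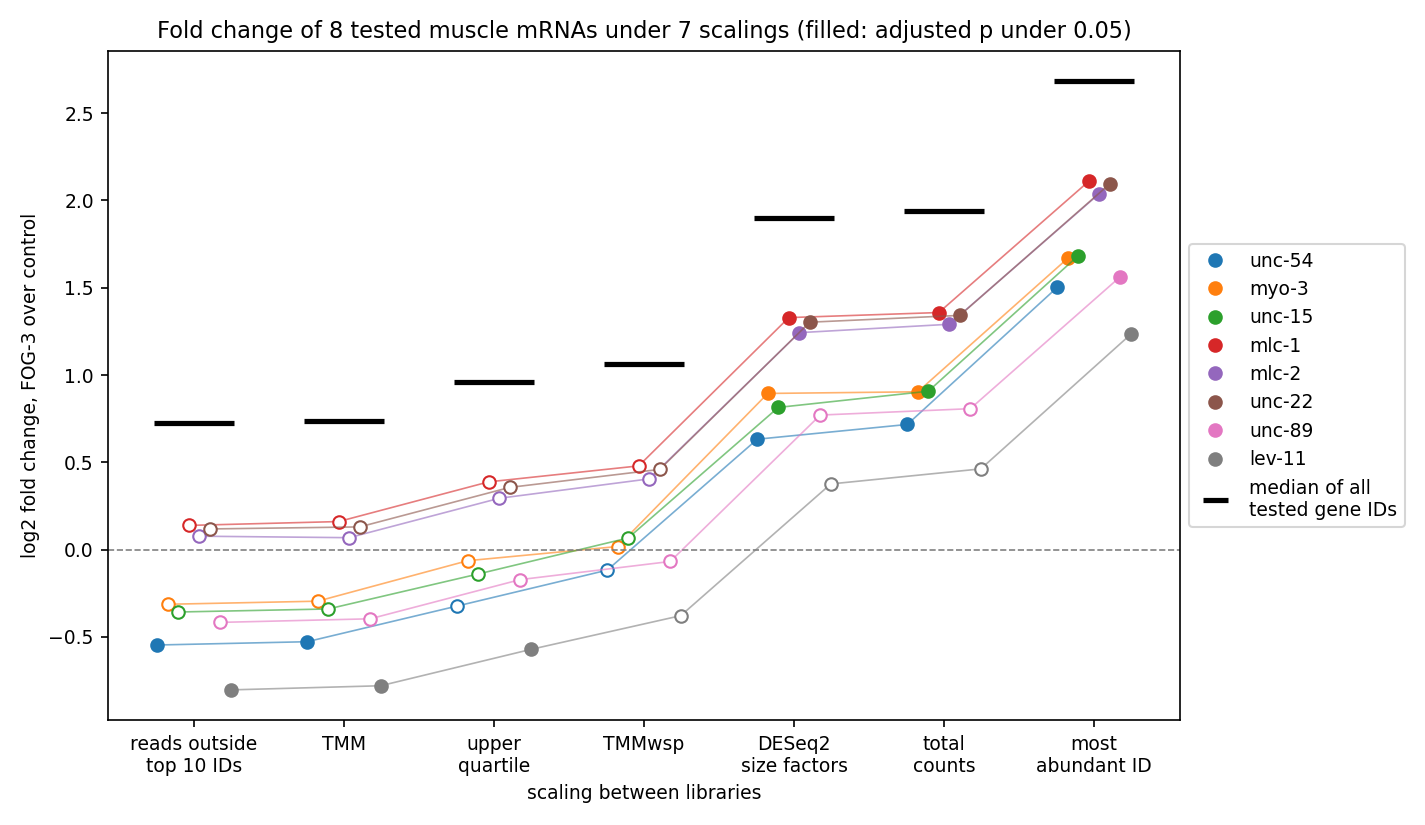
Log2 fold change of the 8 tested muscle mRNAs (FOG-3 over control, y axis) under 7 scalings between libraries (x axis), where filled points have an edgeR adjusted p under 0.05, open points do not, and black bars are the median of all 886 tested gene IDs. The points of unc-54, myo-3, unc-15, unc-89 and lev-11 move from below 0 to above 0 with the scaling (lev-11 from -0.80 to 1.23), those of mlc-1, mlc-2 and unc-22 stay above 0, and all lie below the black bar of their column.

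The muscle mRNAs were also placed among the other gene IDs of the same fit. With TMM, the median log2 fold change was -0.32 over the 8 tested muscle mRNAs and 0.74 over all 886 tested gene IDs. All 8 lay below that median, at percentiles from 26.1 for lev-11 to 41.5 for mlc-1. They thus stood in the lower middle of the distribution and not at its lower end. Gene IDs with reads in FOG-3 libraries alone could pass the filter, which raises that median and lowers these percentiles. With total counts the medians were 0.91 and 1.94. Another scaling shifts all gene IDs by about the same amount and cannot move this place much. In the alternatives that left out libraries or used another filter, all tested muscle mRNAs were again below the median of the gene IDs tested there. The difference of the medians is a description and was not tested.

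**Figure D3:**
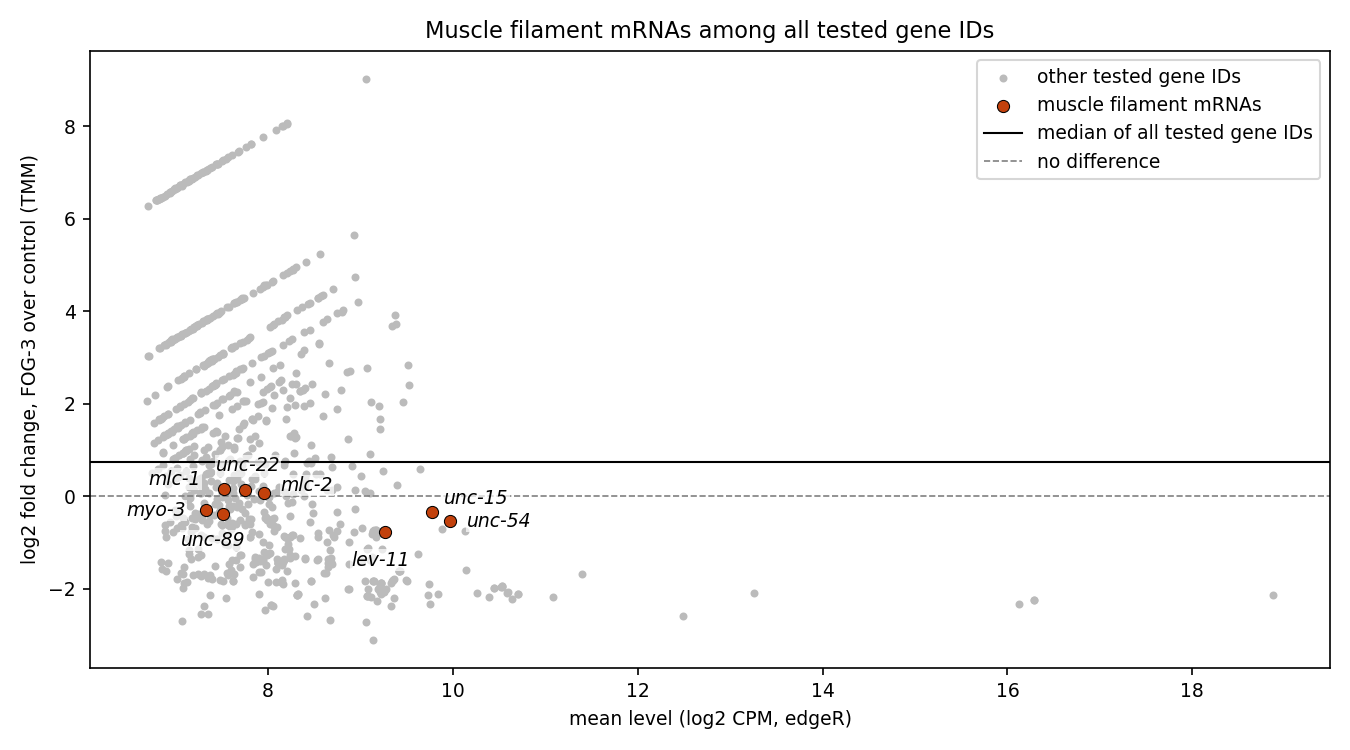
Each point is 1 of 886 tested gene IDs, with the mean level from edgeR (log2 CPM) on the x axis and the log2 fold change with TMM on the y axis. The 8 muscle mRNAs (orange) lie between -0.78 and 0.16, all under the median of 0.74 (black line) and above the lowest gene IDs of similar level.

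The mutual proportions of the muscle mRNAs do not depend on the scaling between libraries. As shares of the reads of all 9, which are not corrected for the length of the mRNAs, unc-54 had 27.8% ± 0.9 (SD, n = 4) with the antibody and 30.1% ± 5.6 without it. For unc-15 the shares were 25.6% ± 2.4 and 26.1% ± 7.2. These largest components of the thick filament thus differed between groups by less than the spread of the controls. The reads of unc-15 per read of unc-54 were 0.924 ± 0.114 in FOG-3 and 0.867 ± 0.155 in controls (SD, n = 4).

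The share of lev-11 was 16.3% ± 1.5 in FOG-3 and 21.5% ± 9.9 in controls (SD, n = 4), where it was lowest in control b, with 3 of 30 muscle reads, and highest in control a, with 10 of 30. Twitchin unc-22 was the only 1 of the 9 whose shares did not overlap between the groups. It had 5.87%, 5.85%, 7.22% and 6.22% in FOG-3 a to d, and 3.33%, 3.33%, 5.15% and 4.12% in control a to d. With 1 read each in controls a and b and a gap from 5.15% to 5.85%, this is a description of 1 mRNA picked out of 9 after its values were seen.

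The shares of the light chains were 7.47% ± 1.16 in FOG-3 and 4.82% ± 1.86 in controls for mlc-2, and 5.03% ± 1.35 and 2.37% ± 2.98 for mlc-1 (SD, n = 4). Those of unc-89 were 4.78% ± 0.84 and 4.92% ± 1.39. The heavy chain myo-3 had 4.09% ± 1.13 and 2.69% ± 2.24, and myo-2 had 2.71% ± 1.04 and 3.42% ± 0.52. All of these overlapped between the groups.

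**Figure D4:**
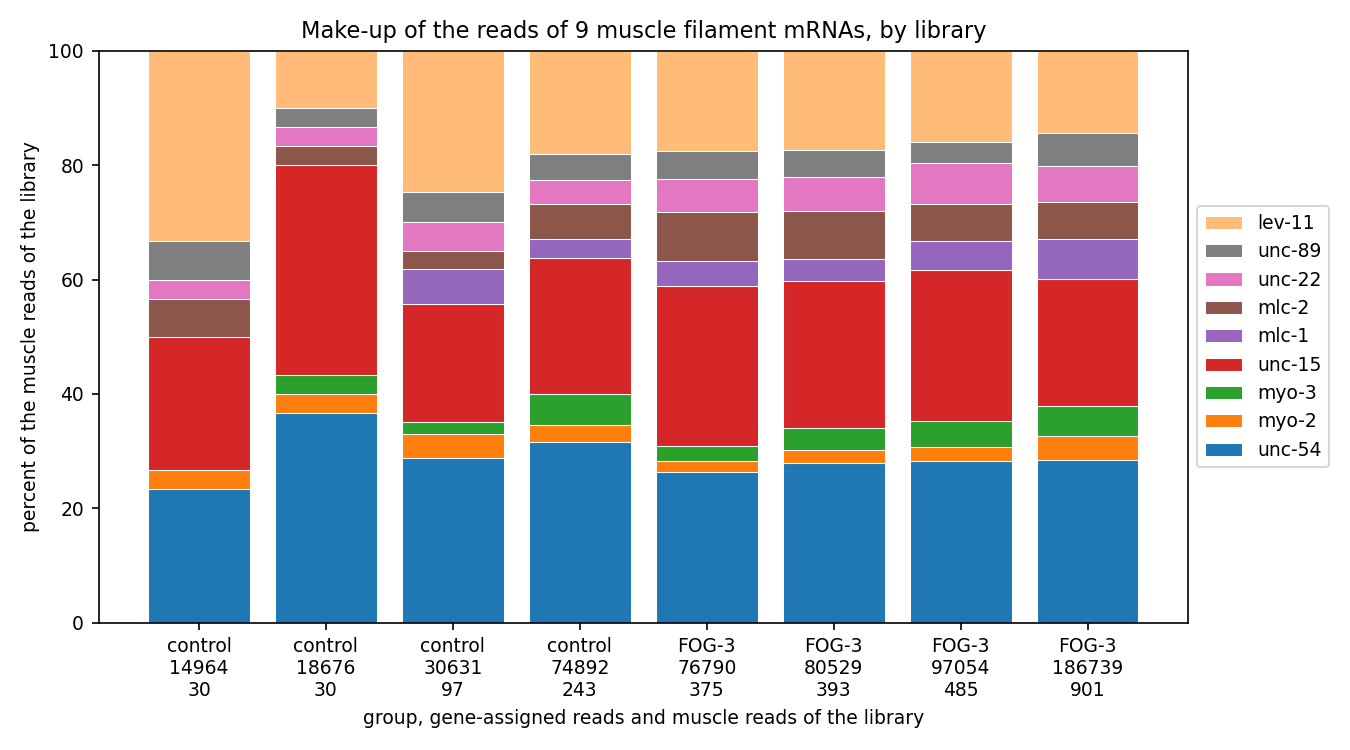
Share of each of the 9 mRNAs in the muscle reads of a library (y axis, percent), with libraries ordered by depth within groups and labelled by group, gene-assigned reads and muscle reads. The FOG-3 bars look alike, with unc-54 at 26.4% to 28.4%, while the controls with 30 muscle reads spread unc-54 from 23.3% to 36.7%.

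Counts of most muscle mRNAs varied between FOG-3 libraries about as much as counting alone would give. The chi-square per degree of freedom over the 4 FOG-3 libraries, which is about 1 for pure counting error, was 0.161 for unc-54, 0.386 for unc-22, 0.777 for unc-89, 0.888 for mlc-2 and 0.918 for lev-11. It was higher for myo-3 (1.49), unc-15 (1.88), mlc-1 (1.98) and myo-2 (2.20), and for myo-3, mlc-1 and myo-2 the deepest library, FOG-3 d, had the highest CPM. In the controls it was 2.68 for lev-11, 2.19 for unc-54, 2.06 for mlc-1 and 1.74 for myo-3, and under 1 for the other 5.

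The annotation bears on how completely these genes could be counted. In the RefSeq gene table of assembly WBcel235, all 10 symbols were found. Its gene models may differ from those the authors used. There, mlc-1 and mlc-2 are neighbours, and 2 other genes lie wholly between their spans, neither of which codes for protein. Genes that overlap mlc-1 or mlc-2 are not in that count. The span of unc-54, unc-15 and myo-2 overlaps no other gene, while that of unc-22 overlaps 22 (2 of them protein-coding). That of unc-89 overlaps 5 (1 of them protein-coding) and that of myo-3 overlaps 3 (0 protein-coding). Those of mlc-1 and mlc-2 overlap 1 protein-coding gene each, and that of lev-11 overlaps 1 gene that does not code for protein. Reads that overlapped several genes were kept apart in the deposited table. Reads of unc-22, unc-89, myo-3, mlc-1, mlc-2 and lev-11 in such places may therefore be missing from their rows. How many was not tested. The table lists 19 transcripts for lev-11, 16 for unc-89 and 9 for unc-22, whose reads the counts pool. Read numbers were not compared between genes per length, since no transcript lengths were used here.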

How the data were processed

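The deposited table holds raw counts of reads for each gene ID in 8 columns, made by the authors with STAR 2.4.2 and HTSeq according to the submitters' processing notes. What they used as genome build, annotation and strand setting, and whether PCR copies were removed, is not given in the sources used here. Column names give the group and a tag found in no label. The design text calls the libraries biological replicates. Pairs of libraries differed beyond sampling noise (chi-square per degree of freedom at least 1.55 among FOG-3 and 1.66 among controls), so none was taken as a copy. The 2 rows that name no gene (2.75% to 13.0% of reads) stayed out of library sizes and tests.

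Counts were fitted over the whole table by the quasi-likelihood F test of edgeR 4.0.16 (R 4.3.3; TMM factors, no term but group, default filter with minimum count 10 and minimum total 15). Standard errors were taken as the absolute log2 fold change over the root of its F statistic. DESeq2 1.42.0 and limma 3.58.1 (voom) were alternatives. The fit was also run on simulated data, with both groups drawn from a shared mean profile apart from some changed gene IDs. These data were not built with the group difference in the most abundant gene ID, so they do not bear on the choice of scaling. CPM without a further word use total gene-assigned reads with no TMM factor. All 10 listed genes were to be named. A planned count of other muscle genes was not made because 0 IDs of the count table occur in the reference table, which also held no sequences. The members and the tests were chosen with earlier results of these data known.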

Additional observations from a re-analysis of the deposited data

Results flagged for a closer look

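In Dixon's test no library stood apart from the other 3 of its group. It was run on 38 groups of 4 values: the CPM and the share among muscle reads of each of the 9 mRNAs, and their summed share of gene-assigned reads.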

How the results depend on the processing

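No paired analysis was possible because the columns of the count table carry no replicate number, so the replicate block was not run. Leaving out the 2 shallowest controls was chosen after seeing the data. In all 20 alternative fits 100% of the tested muscle mRNAs lay below the median of all tested gene IDs, but another scaling moves all gene IDs about alike, so the scaling fits say nothing about the stability of this place. In every fit, gene IDs with reads in FOG-3 libraries alone could enter that median and raise it. The number called higher was 0 with TMM, where 401 of all 886 tested gene IDs were higher. It was 6 with total counts (596 of 886 over all) and 6 with the size factors of DESeq2 in edgeR (588 of 886). It was 5 with DESeq2 (562 of 886) and 8 with the most abundant gene ID as the standard (706 of 886). The number called lower was 2 with TMM (244 of 886 over all). In these 4 fits it was 0, where 84, 92, 87 and 6 of 886 were lower over all. It was 0 with TMMwsp (193 of 886), 0 with no filter (132 of 12240) and 0 with the filter at 1 CPM in 4 libraries (192 of 5258). It was 1 with upper-quartile factors (215 of 886), 1 at an adjusted p under 0.01 (220 of 886) and 1 without the 2 shallowest controls (256 of 1301). With no filter or the filter at 1 CPM, few gene IDs were lower at all, so that 0 is near the background there. With any 1 library left out, 0 to 2 were lower and 0 higher. Over all gene IDs, 120 to 257 were then lower and 393 to 577 higher, of 915 to 1116 tested. Of the 160 values that the 8 tested mRNAs had in the 20 fits, 88 kept direction and side of the threshold. Another 44 turned, with or without a change of call. Among the values that kept direction, 16 lost and 12 gained a call. The ratio of the summed shares, 1.95, was 0.775 without the 10 most abundant gene IDs in the total. It was 1.38 without the most abundant gene ID alone, 1.80 with all reads, and 1.75 to 2.17 when each library was left out in turn. The 80 alternatives for shares within the list moved by less than 1 SD of the libraries, but that SD is wide in controls. In percentage points, FOG-3 minus control, the difference for unc-15 was -0.55 and turned to 2.97 without control b and 0.58 without FOG-3 d, and that for unc-89 was -0.14 and turned to 0.44 without control a and 0.21 without FOG-3 c. For lev-11, -5.24 became -1.31 without control a and -9.09 without control b, and for unc-54, -2.38 became -4.64 and -0.20.

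The log2 fold changes that turned are these. For unc-54 they were 0.72 with total counts, 0.63 with the size factors of DESeq2 in edgeR, 0.64 with DESeq2, 1.503 scaled on the most abundant gene ID, 0.14 with no filter, 0.029 with 1 CPM in 4 libraries and 0.24 without control d. For myo-3, in the same order of settings, they were 0.90, 0.89, 0.98, 1.67, 0.31, 0.17 and 1.43, and further 0.018 with TMMwsp, 0.038 with limma-voom and 0.17 without FOG-3 b. For unc-15 they were 0.91, 0.81, 0.81, 1.68, 0.33, 0.22 and 0.36, with 0.067 for TMMwsp and 0.067 without FOG-3 b. For unc-89 they were 0.81, 0.77, 0.76, 1.56, 0.21, 0.080 and 0.22, with 0.016 without FOG-3 b. For lev-11 they were 0.46, 0.38, 0.37 and 1.23 in the first 4 of these settings. From values above 0, mlc-1 turned to -0.11 without FOG-3 d and -0.30 without the 2 shallowest controls, mlc-2 to -0.071 without FOG-3 a, -0.14 without these controls and -0.0021 without identical gene IDs, and unc-22 to -0.13 without these controls. With any 1 library left out, values ran from -0.88 to -0.24 for lev-11, from -0.57 to 0.24 for unc-54, from -0.52 to 1.43 for myo-3, from -0.45 to 0.36 for unc-15, from -0.56 to 0.22 for unc-89, from -0.11 to 0.75 for mlc-1, from -0.071 to 1.21 for mlc-2 and from 0.086 to 0.78 for unc-22. Fits without a filter or with 1 CPM in 4 libraries tested more gene IDs, and fits that left out libraries had fewer samples. The other causes were not tested. In the shallowest control a single read is worth 66.8 CPM, which limits every value from 1 to 3 reads.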
